A study of Mus musculus with 30 samples.

Results

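Among the 30 RNA-seq libraries of the study, 4 came from mouse embryonic stem cells (mESCs) with a single X chromosome, and these were compared by the X they kept. The 2 X129OCast libraries were labelled as keeping the 129 X and lacking the Cast X, and the 2 XCastO129 libraries as keeping the Cast X and lacking the 129 X. The 129 X carries a deletion in *Rnf12* (*Rlim*), so that X129OCast had no intact copy and XCastO129 had 1. Both lines came from female cells that are hybrids of 129/Sv and Cast/Ei, and were grown with serum and LIF on mouse embryonic fibroblasts. They were depleted of these feeders by pre-plating before RNA extraction. Reads that cover a base at which 129 and Cast differ could be assigned to an allele.

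The study reports that its XO lines lost a whole X chromosome after CRISPR-Cas9 targeting of X-linked regions. They served there as controls matched for this treatment. The absence of *Rlim* and the strain of the retained X cannot be told apart in this comparison. The study describes its XCastO129 replicates as clones of separate origin, while for X129OCast neither the labels nor the study's text used here says so. The p-values rest on the spread between 2 libraries of each line, which for X129OCast may be technical. All 4 libraries were read in the same way, as single reads of 50 bases, whereas the other 26 were read in pairs on another sequencer.

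RLIM (RNF12) is an X-linked E3 ubiquitin ligase that marks REX1, the product of *Zfp42*, for degradation. REX1 represses *Xist*, and RLIM thereby takes part in starting X inactivation in female cells. REX1 is also a marker of naive pluripotency, the state of mESCs in LIF, which cells leave through a formative state on their way to differentiation.

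The libraries held 16494893 and 14998265 counts in X129OCast and 15564409 and 15633159 in XCastO129, of which 21.9% to 22.0% were assigned to an allele. Among allelic X-linked reads, 98.4% and 98.5% were from 129 in X129OCast and 7.63% and 7.12% in XCastO129. Mitochondrial counts were 0.819% to 1.08% of the total. Expression of *Pou5f1*, which encodes the core stem cell factor OCT4, was 2016 and 1994 TPM (counts scaled for exon length and library size) in X129OCast and 1882 and 1912 TPM in XCastO129. *Sox2*, its partner factor, was at 359 and 409 TPM against 314 and 347 TPM. Both genes were thus high in all 4 libraries, and neither passed the test (edgeR adjusted p = 0.323 and 0.252).

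*Rlim* (ENSMUSG00000056537, chromosome X, 103957163 to 103981284 on mm10) was at 3.53 and 3.53 TPM in X129OCast and at 71.2 and 77.8 TPM in XCastO129. The log2 fold change of X129OCast over XCastO129 was -4.35 (SE 0.10; edgeR quasi-likelihood test, adjusted p = 0.00021). The reads left in X129OCast came from 129 where they could be assigned, with 24 and 17 counts from 129 and 0 from Cast in both libraries. In XCastO129, 597 and 679 counts were from Cast and 5 and 16 from 129. The labels of the 4 libraries therefore matched the gene that should separate them. Of 597 X-linked genes tested, 10 passed an adjusted p of 0.05, and 7 of these were lower in X129OCast. *Rlim*, lower by design, was among the 7. Of autosomal genes outside the chromosome 5 segment described next, 20 of 15131 (0.132%) passed.

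A segment of chromosome 5 stood apart before any comparison of the lines. Beyond 135 Mb, 25.8%, 26.4% and 26.4% of allelic reads were from 129 in X129OCast replicate 1, X129OCast replicate 2 and XCastO129 replicate 1, but 51.2% in XCastO129 replicate 2. Summed expression of this segment was 31310, 31690, 27770 and 14700 CPM (counts scaled to library size) in the same order. Of 200 genes there with at least 10 counts in every library, 181 were lowest in XCastO129 replicate 2, with a median log2 of -1.04 against the median of the other 3 libraries. The difference already appeared in the window that starts at 134 Mb, where shares were 18.8%, 19.4%, 19.5% and 52.9%, while the chromosome before it had 52.2% to 52.9% in all 4 libraries. The 228 genes tested beyond 135 Mb are given apart, and the 16 genes tested between both borders stayed among the autosomal genes.

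A smaller difference was seen on chromosome 15 from 98 Mb on. X129OCast replicate 1 had 56.3% of reads from 129 there, against 49.8%, 49.9% and 49.9% in the other 3 libraries, and its summed expression was 11730 CPM against 10840, 9863 and 9921 CPM. On chromosome 12, 64.6% to 65.2% of reads were from 129 in all 4 libraries. The other autosomes lay between 48.3% and 53.01%.

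**Figure D1:**
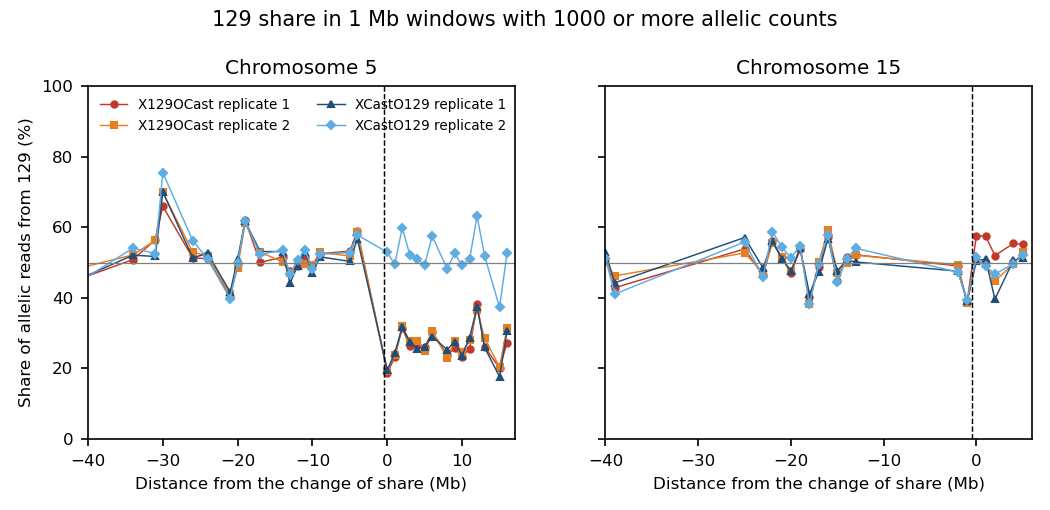
Share of allelic reads from 129 (%) in 1 Mb windows of chromosomes 5 and 15, against the distance in Mb from the window where the share changes (dashed line), with 1 line per library. On chromosome 5 only XCastO129 replicate 2 stays near 50% beyond the dashed line, and on chromosome 15 X129OCast replicate 1 lies above the other 3 libraries.

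Of 15131 autosomal genes tested outside the distal chromosome 5 segment, 20 (0.132%) differed between the lines in the fit of the 4 libraries, 10 higher and 10 lower in X129OCast. Of these, 13 (0.0859% of genes tested) differed by more than 1 on the log2 scale. An unadjusted p under 0.05 was found for 2630 genes. The largest falls were of *Sfmbt2*, *Lncenc1* and *Gab1*, and the largest rises of *Gpx2*, *Cbarp* and *Lgals9*. When the spread was estimated from all 30 libraries, 973 genes (6.43%) passed, 502 higher (3.32%) and 471 lower (3.11%), and 19 of the 20 were among them. DESeq2 called 435 genes on the 4 libraries, all 20 included, and 339 of them were called in the same direction by the fit of 30 libraries (77.9% of the DESeq2 list and 34.8% of the other).

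The counts depended on which line supplied the spread. The median absolute log2 difference between replicates was 0.13 in X129OCast and 0.239 in XCastO129. In the fit of 4 libraries, autosomal genes called numbered 0 by edgeR without either X129OCast library, and 3202 and 3114 without XCastO129 replicate 1 and replicate 2. In the fit of 30 libraries, leaving out an X129OCast library gave 180 and 166 genes and leaving out an XCastO129 library 862 and 824. Both fits are therefore given below. Many calls of the fit of 4 libraries lay just under the threshold, and 5 autosomal genes were called when protein-coding genes alone were fitted. There *H2afy*, *Cd63*, *Cbarp*, *Bag3*, *Kdm6b*, *Lgals9*, *Myrf*, *Plcg2* and *Pou3f1* had edgeR adjusted p-values of 0.0525 to 0.0602.

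Among the genes that fell, 8 were protein-coding. *Sfmbt2*, which encodes a Polycomb group protein and is imprinted in the placenta, was at 6.55 and 8.47 TPM in X129OCast against 66.0 and 43.3 TPM in XCastO129. Its log2 fold change was -2.82 (SE 0.24, edgeR adjusted p = 0.0336). *Gab1*, an adaptor protein that links receptor tyrosine kinases to their effectors and is likewise imprinted in extraembryonic tissue, was at 27.8 and 28.5 TPM against 127 and 110 TPM. It fell by 2.03 on the log2 scale (SE 0.11, edgeR adjusted p = 0.0123). Every X129OCast value lay below every XCastO129 value for both genes, which their selection by a test on these libraries makes likely.

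*Tfap2c*, which encodes the transcription factor AP-2γ of germ cells, trophoblast and naive pluripotency, was at 22.4 and 23.8 TPM in X129OCast and 47.8 and 51.5 TPM in XCastO129. *H2afy*, the gene of the histone variant macroH2A1, was at 24.3 and 24.5 TPM against 50.9 and 47.3 TPM. *Fos*, an immediate early gene, was at 167 and 154 TPM against 337 and 326 TPM. These 3 genes fell by 1.06, 0.97 and 1.00 on the log2 scale (edgeR adjusted p = 0.0418, 0.0398 and 0.0336), and *Fos* was the one called gene that did not pass in the fit of 30 libraries (adjusted p = 0.17).

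*Mme*, which encodes the membrane peptidase neprilysin, was low in both lines, with 3.12 and 3.65 TPM in X129OCast and 10.5 and 11.4 TPM in XCastO129. *Cd63*, a tetraspanin of late endosomes, was at 25.4 and 24.5 TPM against 54.0 and 50.8 TPM. *Slc25a36*, a mitochondrial carrier of pyrimidine nucleotides, was at 26.7 and 25.8 TPM against 50.9 and 49.9 TPM. Their log2 fold changes were -1.65 (SE 0.14), -1.03 (SE 0.10) and -0.90 (SE 0.09), with edgeR adjusted p-values of 0.0336, 0.0424 and 0.0392.

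The other 2 genes that fell were not protein-coding. *Lncenc1*, a long noncoding RNA of mESCs, was at 18.0 and 13.6 TPM in X129OCast and 69.6 and 93.1 TPM in XCastO129, and fell by 2.32 on the log2 scale (edgeR adjusted p = 0.0336). *Rps4x-ps*, a processed copy of the X-linked ribosomal protein gene *Rps4x* on chromosome 5 (3875362 to 3876154, before the distal segment), was at 61.8 and 59.5 TPM against 219 and 182 TPM. At most 1.45% of its allelic reads were from 129 in any library. Because its sequence is a copy of an X-linked gene, reads of *Rps4x* itself may have been counted on it, and its fall is uncertain.

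Among the genes that rose, *Gpx2* and *Rab15* are neighbours on chromosome 12, with 2405 bases between them and the same strand. *Gpx2*, a glutathione peroxidase of epithelia, was at 50.3 and 44.2 TPM in X129OCast and 14.1 and 14.7 TPM in XCastO129, a log2 fold change of 1.75 (SE 0.13, edgeR adjusted p = 0.0266). *Rab15*, a small GTPase of endosome recycling, was at 50.1 and 46.2 TPM against 24.2 and 24.0 TPM, a log2 fold change of 1.04 (SE 0.10, edgeR adjusted p = 0.0392). Both were higher in both X129OCast libraries, which their selection by a test on these libraries makes likely. Chromosome 12 as a whole had a similar share of 129 reads in all libraries (64.6% to 65.2%). A difference in copies or alleles near these genes was not tested.

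*Plcg2*, phospholipase C gamma 2, was at 84.6 and 84.3 TPM against 48.7 and 43.6 TPM. *Lgals9*, which encodes the sugar-binding protein galectin-9, was at 53.5 and 49.1 TPM against 22.5 and 21.3 TPM. *Cbarp*, a regulator of voltage-gated calcium channels, was at 29.3 and 32.8 TPM against a mean of 12.7 TPM ± 0.846 (SD, n = 2). They rose by 0.92, 1.27 and 1.33 on the log2 scale, with edgeR adjusted p-values of 0.0474, 0.0424 and 0.0392.

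*Kdm6b*, a demethylase of H3K27me3, the mark of Polycomb, was at 84.3 and 88.0 TPM in X129OCast and 43.8 and 49.3 TPM in XCastO129 (log2 0.93, SE 0.09, edgeR adjusted p = 0.0398). *Bag3*, a cochaperone of HSP70 that heat shock induces, was at 150.3 and 161 TPM against 89.1 and 86.6 TPM (log2 0.87, SE 0.09, edgeR adjusted p = 0.0424). *Myrf*, a membrane-bound transcription factor of myelin genes, was at 98.6 and 102 TPM against 56.7 and 62.3 TPM. *Snrpn*, an imprinted gene for a spliceosome protein, was at 543 and 542 TPM against 322 and 340.4 TPM, with log2 fold changes of 0.80 for *Myrf* and 0.76 for *Snrpn* (edgeR adjusted p = 0.0424 and 0.0392). *Pou3f1*, a formative factor, is given with its group below.

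**Figure D2:**
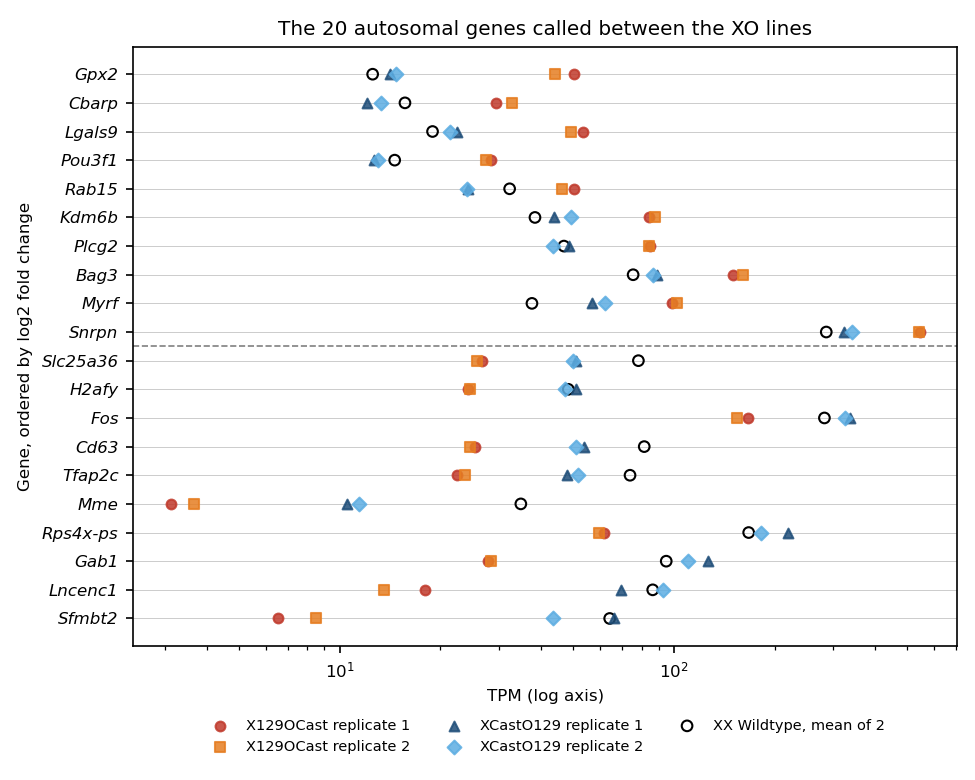
TPM (log axis) of the 20 autosomal genes called between the lines, with 1 filled symbol per XO library and an open circle for the mean of the 2 XX Wildtype libraries, which were read in another way. The X129OCast and XCastO129 symbols do not overlap for any of the 20, and all 20 open circles lie on the XCastO129 side of the midpoint. The 20 genes were called on these same libraries. In CPM, 25.3% of all autosomal genes tested were higher and 25.3% lower in X129OCast without overlap.

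Set beside the XX Wildtype libraries, which have 2 X chromosomes and intact *Rlim* but were sequenced as paired reads, the XX Wildtype mean lay nearer to XCastO129 than to X129OCast on the log2 scale for 20 of 20 called genes. For the 973 genes this held for 786 (80.8%), against 64.2% of all autosomal genes tested. *Sfmbt2*, for example, had a mean of 64.2 TPM in XX Wildtype and *Gpx2* 12.6 TPM. Read type, batch and X dosage differ between these libraries and the XO lines, and the difference was not tested.

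The 20 gene lists held 269 autosomal genes that were tested, of which 5 (1.86%, against 0.132% of all) passed in the fit of 4 libraries and 31 (11.5%, against 6.43%) in the fit of 30. *Gab1*, *Snrpn*, *Tfap2c*, *Fos* and *Pou3f1* were the 5. The lists were chosen with earlier results of these data known, so these shares cannot show that listed genes differ more often than others. Without X129OCast replicate 1 or 2, the fit of 30 libraries called 6 and 10 list genes. The lists are described by these counts, by the genes whose CPM did not overlap between the lines, and by their median log2 fold change. Over all autosomal genes, 25.3% were higher and 25.3% lower in X129OCast without overlap, and the median log2 fold change was -0.02.

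Naive pluripotency genes that passed a test were lower in X129OCast. Of 13 tested, 0 passed in the fit of 4 libraries, 6 were lower and 0 higher in the fit of 30, and 10 were lower without overlap. The median log2 fold change was -0.50. *Nanog*, a core factor of the naive state, was at 312 and 314 TPM in X129OCast and at 526 and 461 TPM in XCastO129 (log2 -0.61, SE 0.09, edgeR adjusted p = 0.0858 with 4 libraries and 0.00155 with 30). *Esrrb*, an orphan nuclear receptor that maintains self-renewal, was at 491 and 524 TPM against 701 and 605 TPM (log2 -0.32, SE 0.09, edgeR adjusted p = 0.181 and 0.0323).

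*Zfp42*, the gene of the RLIM substrate REX1, was at 704 and 729 TPM in X129OCast and 1073 and 993 TPM in XCastO129. Its log2 fold change was -0.48 (SE 0.08, edgeR adjusted p = 0.0918 with 4 libraries and 0.0489 with 30), and it did not pass in the fit of 30 when any 1 of the 4 XO libraries was left out. The other naive genes lower in the fit of 30 libraries were *Nr5a2*, *Prdm14* and *Klf4* (log2 -0.85, -0.70 and -0.50; adjusted p = 0.0139, 0.00187 and 0.0415). *Nr5a2* encodes a nuclear receptor and *Klf4* a zinc finger factor of reprogramming. *Fgf4*, at 184 and 168 TPM against 189 and 175 TPM, and *Klf5* differed by less than 0.10 on the log2 scale. In the fit of 30 libraries without X129OCast replicate 1 or replicate 2, 2 naive genes were called lower, and without XCastO129 replicate 1 or 2 there were 5 and 6.

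The proximal promoters of *Nanog* and *Zfp42* are shown because they hold the best known sites of OCT4 in these genes' group. The 250 bases before the transcription start are from RefSeq on GRCm38.p6, 5′ to 3′ on the coding strand, at chr6:122707239-122707488 for *Nanog* (plus strand) and chr8:43307010-43307259 for *Zfp42* (minus strand). Capitals mark the match to a SOX site next to an octamer (CATTGT, any base, then ATGCA) in *Nanog* and to the octamer ATGCAAAT in *Zfp42*, both found on the reverse strand:
Nanog: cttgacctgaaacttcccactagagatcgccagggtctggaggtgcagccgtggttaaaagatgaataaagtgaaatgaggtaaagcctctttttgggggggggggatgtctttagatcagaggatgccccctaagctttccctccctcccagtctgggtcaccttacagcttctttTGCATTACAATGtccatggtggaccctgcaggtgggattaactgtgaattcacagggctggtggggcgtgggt
Zfp42: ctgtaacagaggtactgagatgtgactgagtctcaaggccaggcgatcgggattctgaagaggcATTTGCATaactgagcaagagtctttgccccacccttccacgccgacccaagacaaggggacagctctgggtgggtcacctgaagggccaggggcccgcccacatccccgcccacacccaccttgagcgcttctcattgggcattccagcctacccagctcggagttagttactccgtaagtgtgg

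Of 32851 promoters in the table, 9 (0.0274%) held the first motif and 526 (1.601%) the second within 250 bases, on either strand. Of the 20 called genes, 14 were in the table and 0 held either motif. The products of *Pou5f1* and *Sox2* bind these sites. Both genes had higher TPM in both X129OCast libraries than in either XCastO129 library, though neither passed the test. In CPM, 25.3% of all autosomal genes were higher without overlap. A link of these sites to the levels of *Nanog* and *Zfp42* was not tested.

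Formative and primed genes that passed a test were higher in X129OCast. Of 15 tested, 1 rose and 0 fell in the fit of 4 libraries, 4 rose and 0 fell in the fit of 30, and 10 were higher without overlap, with a median log2 fold change of 0.66. *Pou3f1*, which encodes the POU factor OCT6, was at 28.4 and 27.5 TPM in X129OCast and 12.6 and 13.0 TPM in XCastO129 (log2 1.17, SE 0.13, edgeR adjusted p = 0.0454 with 4 libraries and 0.0118 with 30). *Dnmt3a*, a de novo DNA methyltransferase, was at 228 and 211 TPM against 124 and 102 TPM (log2 1.00, SE 0.11, edgeR adjusted p = 0.0521 and 0.0236). *Foxd3* and *Grhl2*, factors of the formative enhancer switch, rose by 1.04 and 0.93 in the fit of 30 libraries (adjusted p = 0.0242 and 0.0449).

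In this list 1 library decided several values. *Fgf5*, a marker of the formative state, was at 32.0 and 30.5 TPM in X129OCast and at 3.65 and 30.1 TPM in XCastO129, so that only XCastO129 replicate 1 was low. *Sall2* behaved alike, at 17.4 and 20.3 TPM against 4.67 and 15.6 TPM. *Otx2*, a factor that drives the formative state, was at 121 and 105 TPM against 42.5 and 75.3 TPM, low in both XCastO129 libraries (log2 0.99, SE 0.25, edgeR adjusted p = 0.159 with 4 libraries and 0.0501 with 30). Without XCastO129 replicate 1 the fit of 30 libraries called 3 formative genes higher, without XCastO129 replicate 2 it called 5 higher and 1 lower, and without either X129OCast library 0.

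**Figure D3:**
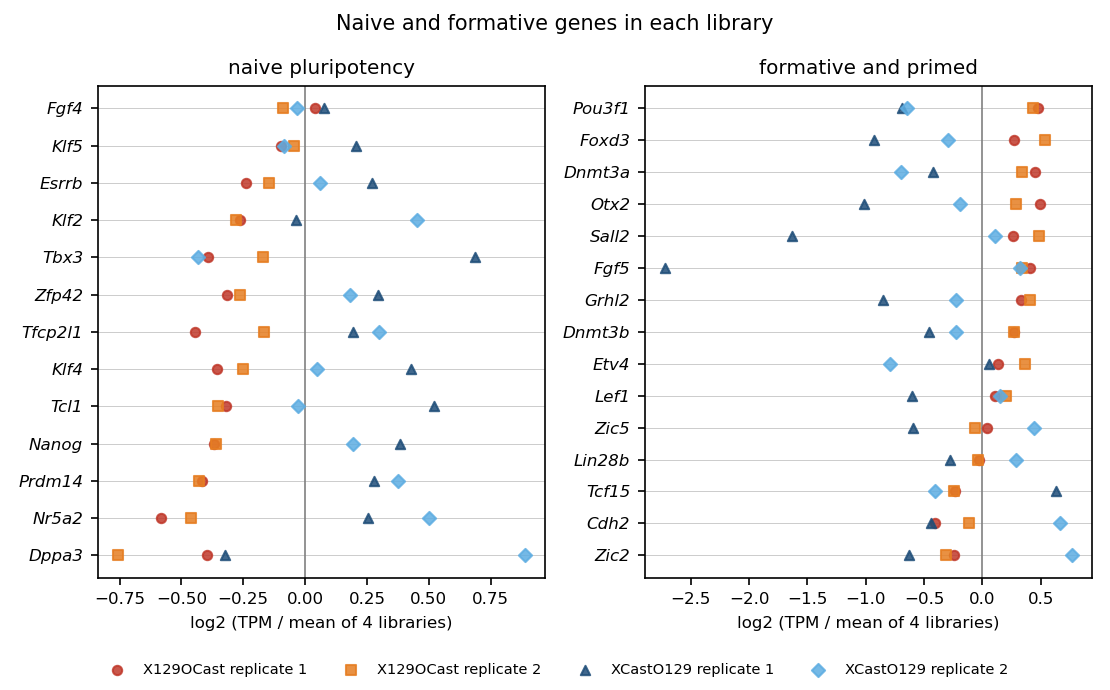
Log2 of TPM over the mean of the 4 libraries for the 13 naive genes (left) and the 15 formative and primed genes (right), with 1 symbol per library. The 2 X129OCast libraries lie close together, and XCastO129 replicate 1 has the lowest *Fgf5* and *Sall2*.

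Core stem cell genes moved in both directions. Of 10 tested, 5 were higher and 2 lower without overlap, and the median was 0.06. In the fit of 4 libraries 0 passed, while the fit of 30 called *Utf1* higher and *Tdgf1* and *Gdf3* lower. Which of these calls held depended on the XO libraries included. *Utf1*, a chromatin factor of pluripotent cells, was at 1583 and 1582 TPM in X129OCast and 1189 and 1157 TPM in XCastO129 (log2 0.48, SE 0.07, edgeR adjusted p = 0.0738 with 4 libraries and 0.0302 with 30). *Tdgf1*, the NODAL co-receptor Cripto, was at 519 and 495 TPM against 780.0 and 704 TPM (log2 -0.51, SE 0.08, edgeR adjusted p = 0.0966 and 0.0171). *Dppa5a*, an abundant RNA of mESCs, was at 4980 and 4683 TPM against 5017 and 5919 TPM, and these ranges overlapped.

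**Figure D4:**
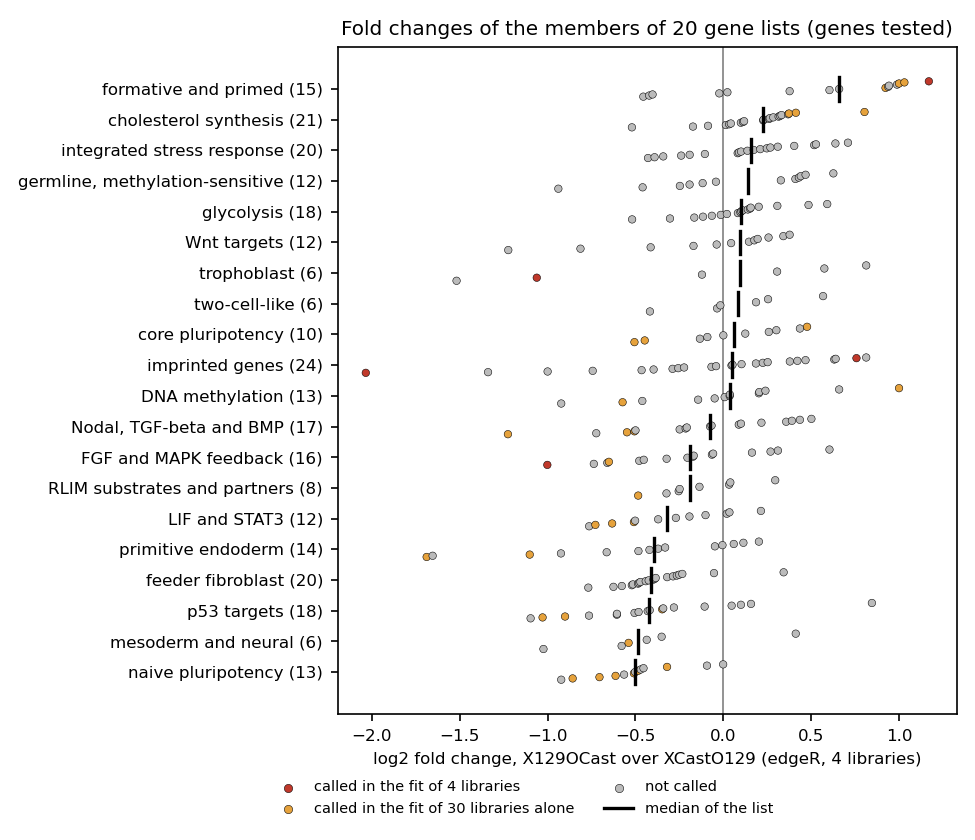
Log2 fold change of X129OCast over XCastO129 (edgeR, 4 libraries) for each tested autosomal gene of the 20 lists, with the number tested in parentheses, colours for genes called in either fit and a black bar at the median. The naive list has the lowest median (-0.50) and the formative and primed list the highest (0.66).

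Genes of signalling pathways that maintain or end the naive state were examined next. In the LIF and STAT3 list, 3 of 12 were lower and 0 higher in the fit of 30 libraries, 7 were lower without overlap, and the median was -0.32. Without X129OCast replicate 1 or 2, the fit of 30 called 0 and 1 of them lower. *Jak1*, the kinase of the LIF receptor, was at 21.4 and 23.5 TPM in X129OCast and 35.7 and 36.0 TPM in XCastO129 (log2 -0.63, edgeR adjusted p = 0.00673 with 30 libraries). *Pim1*, a kinase gene that STAT3 induces, was at 57.0 and 59.1 TPM against 69.8 and 129 TPM (edgeR adjusted p = 0.0178 in the same fit). In XCastO129, *Pim1* was far higher in replicate 2 than in replicate 1. *Klf4* was the other of the 3. *Stat3* itself was at 55.02 and 57.2 TPM against 60.0 and 64.1 TPM (adjusted p = 0.561 with 4 libraries). *Pim3*, a relative of *Pim1*, was at 254 and 245 TPM against 265 and 237 TPM, and overlapped between the lines.

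FGF and MAPK feedback genes are read out as a measure of ERK signalling. *Fos* fell in the fit of 4 libraries but did not pass in the fit of 30 (edgeR adjusted p = 0.17). *Egr1*, another immediate early gene, was lower in the fit of 30 (167 and 173 TPM against 313 and 236 TPM; adjusted p = 0.033). Of 16 tested, 1 was lower and 0 higher in each fit, where 0.132% and 6.43% of all autosomal genes passed. The calls in the fit of 30 changed with the XO libraries included. Without overlap, 6 genes were lower and 3 higher, and the median was -0.19. *Dusp6*, a phosphatase that ERK induces, was at 65.1 and 67.2 TPM against 125 and 102 TPM (edgeR adjusted p = 0.0966 with 4 libraries and 0.0659 with 30). *Spry2*, at 222 and 243 TPM against 252 and 249 TPM, differed by -0.07 on the log2 scale.

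In the list of Nodal, TGF-beta and BMP genes, 3 of 17 were lower and 0 higher in the fit of 30 libraries, with a median of -0.08. Without X129OCast replicate 1 or 2 that fit called 0 and 1 lower, and without XCastO129 replicate 1 or 2 it called 1 higher in each case, with 1 and 3 lower. *Bmp4*, a ligand that supports self-renewal with LIF, was at 53.9 and 69.9 TPM in X129OCast and 208 and 89.8 TPM in XCastO129 (log2 -1.22, edgeR adjusted p = 0.00941 with 30 libraries). In XCastO129, *Bmp4* was far higher in replicate 1 than in replicate 2. *Bmpr1a*, its receptor, was at 21.19 and 19.4 TPM against 29.7 and 31.6 TPM (adjusted p = 0.0127). *Tdgf1* was the third. *Nodal*, at 86.9 and 88.0 TPM against 82.3 and 108 TPM, and *Lefty2*, at 264 and 224 TPM against 242 and 341 TPM, overlapped between the lines. None of 12 Wnt targets passed in either fit, where 0.132% and 6.43% of all genes did, and their median was 0.09. *Tcf7l1*, a repressor of pluripotency genes in this pathway, was at 143 and 156 TPM against 129 and 150.3 TPM, and *Tcf7* at 125 and 116 TPM against 80.2 and 116 TPM.

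The DNA methylation list held 13 genes, of which *Dnmt3a* was higher and *Tet2* lower in the fit of 30 libraries. *Tet2*, which oxidises methylcytosine, was at 20.5 and 23.6 TPM in X129OCast and 35.9 and 31.8 TPM in XCastO129 (log2 -0.57, adjusted p = 0.0365 in that fit). *Dnmt3b*, the second de novo enzyme, was at 609 and 609 TPM against 366 and 430.3 TPM (log2 0.66, SE 0.09, edgeR adjusted p = 0.0717 with 4 libraries and 0.137 with 30). Maintenance genes overlapped between the lines, with *Dnmt1* at 237 and 242 TPM against 231 and 251 TPM and *Uhrf1* at 439 and 438 TPM against 399 and 501 TPM. *Trim28*, a corepressor that guards imprints, was at 2580 and 2659 TPM against 2264 and 2426 TPM (adjusted p = 0.175). Of 12 tested germline genes that DNA methylation silences, 0 passed in either fit, with *Ddx4* at 16.6 and 14.9 TPM against 19.8 and 17.3 TPM and *Syce1*, a gene of the synaptonemal complex, at 45.1 and 40.3 TPM against 40.4 and 25.8 TPM. The medians were 0.04 for the DNA methylation list and 0.14 for the germline list.

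The list of imprinted genes held 2 of the 20 calls, *Gab1* lower and *Snrpn* higher, among 24 tested with a median of 0.05, and *Sfmbt2* was not on it. *Peg10*, a paternally expressed gene of retroviral origin, was at 499.7 and 506 TPM in X129OCast and at 717 and 284 TPM in XCastO129, so that the 2 XCastO129 libraries lay on both sides. *Meg3*, a noncoding RNA of the *Dlk1* domain, was at 204 and 212 TPM against 125 and 185 TPM (edgeR adjusted p = 0.24 with 4 libraries). *H19* was at 96.5 and 96.6 TPM against 126 and 207 TPM (adjusted p = 0.189).

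Targets of p53 that passed a test were lower in X129OCast. Of 18 tested, 0 passed in the fit of 4 libraries, 3 were lower and 0 higher in the fit of 30 libraries, 12 were lower and 2 higher without overlap, and the median was -0.42. *Trp53inp1*, a promoter of cell death and autophagy, was at 31.8 and 27.5 TPM in X129OCast and 57.9 and 66.9 TPM in XCastO129 (log2 -1.03, SE 0.12, edgeR adjusted p = 0.0535 with 4 libraries and 0.00202 with 30). *Btg2*, an antiproliferative gene, was at 21.16 and 22.2 TPM against 39.8 and 43.7 TPM (log2 -0.90, SE 0.13, edgeR adjusted p = 0.0738 and 0.00485). *Zmat3* was the third gene lower with 30 libraries (adjusted p = 0.00621). *Cdkn1a*, the gene of the cell cycle inhibitor p21, was at 43.5 and 44.8 TPM against 59.1 and 68.2 TPM (log2 -0.48, edgeR adjusted p = 0.125 with 4 libraries). *Bax*, a mediator of cell death, was at 373 and 365 TPM against 337 and 346 TPM (adjusted p = 0.353). *Sesn2*, a stress-induced inhibitor of mTORC1 signalling, was at 125 and 115 TPM against 174 and 139.9 TPM (adjusted p = 0.251). In the fit of 30 libraries, 2 or 3 p53 targets were lower whichever XO library was left out.

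Genes of cholesterol synthesis were examined as a metabolic pathway. Of 21 tested, 0 passed in the fit of 4 libraries, 3 were higher and 0 lower in the fit of 30 libraries, 9 were higher and 0 lower without overlap, and the median was 0.23. *Sqle*, which makes squalene epoxide, was at a mean of 153 TPM ± 4.06 in X129OCast (SD, n = 2) and at 128 and 109 TPM in XCastO129. *Sqle* and *Fdft1*, the gene of squalene synthase, were higher by 0.42 and 0.38 in the fit of 30 libraries (adjusted p = 0.0145 and 0.033). *Hmgcs1*, an early enzyme of the pathway, was at 249.6 and 252 TPM against 269 and 236 TPM (adjusted p = 0.881 with 4 libraries). Without X129OCast replicate 1 or 2, the fit of 30 libraries called 0 and 1 of these genes higher. Without XCastO129 replicate 1 it called 4 higher, and without replicate 2 it called 1 higher and 1 lower.

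Genes of glycolysis and of the integrated stress response had 0 calls in both fits among 18 and 20 tested, with medians of 0.10 and 0.15. *Pkm*, pyruvate kinase, was at 2952 and 2922 TPM in X129OCast and 3185 and 2932 TPM in XCastO129, and *Aldoa* at 3068 and 2912 TPM against 3078 and 2663 TPM. *Atf4*, the central factor of the stress response, was at 427 and 401 TPM against 425 and 369.9 TPM, and *Shmt2* at 348 and 342 TPM against 346 and 245 TPM. These ranges overlapped in each of the 4 genes.

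Markers of other cell types were checked in the same libraries. Summed TPM of 22 feeder fibroblast genes was 256 and 387 in X129OCast and 278 and 584 in XCastO129, and 0 of 20 tested genes passed in either fit, with a median log2 fold change of -0.41. *Acta2*, a smooth muscle actin of fibroblasts, was at 45.4 and 74.8 TPM against 42.9 and 108 TPM, and *Tagln* at 48.4 and 51.6 TPM against 44.1 and 110.2 TPM. The sum was thus highest in XCastO129 replicate 2 and overlapped between the lines, while 4 of the 20 genes were lower in X129OCast without overlap. In bulk RNA, fewer cells of a type and less RNA per cell cannot be told apart.

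Primitive endoderm genes summed to 479 and 529 TPM in X129OCast and 595 and 613 TPM in XCastO129. Of 14 tested, 2 were lower and 0 higher in the fit of 30 libraries, 0 passed in the fit of 4, and the median was -0.40. Without X129OCast replicate 1 or 2 the fit of 30 called 0 and 1 lower, and without XCastO129 replicate 2 it called 1 higher and 2 lower. *Lama1*, a laminin of the basement membrane, was at 21.8 and 26.2 TPM against 57.1 and 49.2 TPM (log2 -1.10, SE 0.13, edgeR adjusted p = 0.0584 with 4 libraries and 0.00367 with 30). *Gata4*, a defining factor of this lineage, was at 0.857 and 0.951 TPM against 3.73 and 2.29 TPM (adjusted p = 0.0218 with 30 libraries). *Gata6* and *Sox17*, other defining factors, were under 1 TPM in all 4 libraries, and *Lamc1* was at 200 and 219 TPM against 186 and 190 TPM. *Sparc*, which this lineage and fibroblasts share, was at 97.1 and 102 TPM against 159 and 166 TPM (adjusted p = 0.0601 with 4 libraries). Whether more primitive endoderm cells in XCastO129 have a part in these values was not tested.

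Trophoblast genes had 1 call among 6 tested, *Tfap2c*, which mESCs also express, and *Krt18* was at 62.6 and 48.0 TPM against 33.3 and 59.3 TPM. Among 6 tested mesoderm and neural genes, 0 passed in the fit of 4 libraries. *Tubb3*, a neuronal tubulin, was lower in the fit of 30 libraries (97.7 and 94.7 TPM against 152 and 137 TPM; adjusted p = 0.0499). The call of *Tubb3* lay just under the threshold and depended on the XO libraries included. *Nes* was at 28.4 and 27.2 TPM against 18.1 and 25.0 TPM (adjusted p = 0.266 with 4 libraries). Of 14 genes of the 2-cell-like state, 6 reached the count minimum and 0 passed in either fit, and their summed TPM was 14.9 and 19.6 against 15.5 and 16.9. *Zscan4d* was at 2.51 and 1.92 TPM against 2.65 and 3.48 TPM, and *Usp17le* at 3.56 and 4.07 TPM against 3.55 and 3.35 TPM. The median log2 fold changes of the trophoblast, mesoderm and neural, and 2-cell-like lists were 0.09, -0.49 and 0.08.

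In the list of RLIM substrates and partners, which includes *Zfp42*, 8 of 9 genes were tested, with a median of -0.19. No member other than *Zfp42* passed in either fit, where 0.132% and 6.43% of all autosomal genes did. *Stmn1*, which encodes the microtubule regulator stathmin, was at 291 and 284 TPM in X129OCast and 279 and 372 TPM in XCastO129 (log2 -0.14, SE 0.14, edgeR adjusted p = 0.65). *Smad7*, an inhibitor of TGF-beta signalling, was at 67.8 and 82.4 TPM against 96.0 and 87.9 TPM (log2 -0.25, adjusted p = 0.35).

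Allelic reads showed whether a difference was present on both alleles. Of 10048 autosomal genes fitted on reads from 129, 88 (0.876%) passed, 40 higher and 48 lower in X129OCast, and of 9724 fitted on reads from Cast, 79 (0.812%) passed, 37 higher and 42 lower. All 28 genes that passed on both alleles had the same direction on both. Of the 20 called genes, 17 could be fitted on both alleles, 16 had their direction on both and 8 passed on both. *Gab1* fell by 2.11 on the 129 allele and by 2.12 on the Cast allele (edgeR adjusted p = 0.000208 and 0.0153). *Slc25a36* was the exception, with log2 values of 0.22 and -0.71 (adjusted p = 0.909 and 0.595). These fits are not independent of those on all reads.

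The share of reads from 129 itself differed between the lines for 6 of 8934 autosomal genes tested (0.0672%), while 374 reached 0.05 without adjustment. *Prdm14*, a naive factor that represses FGF signalling and DNA methyltransferases, had 21.6% and 35.4% of reads from 129 in X129OCast and 9.61% and 5.39% in XCastO129 (edgeR interaction of allele and line, adjusted p = 0.00973), from 130 to 241 allelic counts per library. On the Cast allele it fell by 1.08 on the log2 scale (adjusted p = 0.0158), and on the 129 allele its log2 value was 1.21 (adjusted p = 0.202). *Sfmbt2* had 72.5% and 73.8% against 95.2% and 88.9% (adjusted p = 0.0132), with a fall by 3.09 on the 129 allele (adjusted p = 0.000196) and a value of -0.85 on the Cast allele (adjusted p = 0.332).

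*Etv5*, an ETS factor downstream of FGF, had 48.0% and 52.95% of reads from 129 in X129OCast and 41.9% and 37.3% in XCastO129 (adjusted p = 0.019), and its total level was 269 and 275 TPM against 303 and 329.5 TPM (adjusted p = 0.299). *Pla2g1b*, a secreted phospholipase, had 45.0% and 43.6% against 29.2% and 32.9% (adjusted p = 0.0209). *D630045J12Rik* had 23.0% and 23.7% against 36.7% and 48.4% (adjusted p = 0.0464). In each of these 5 genes the shares of the lines did not overlap, but the genes were picked by a test on these same shares.

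**Figure D5:**
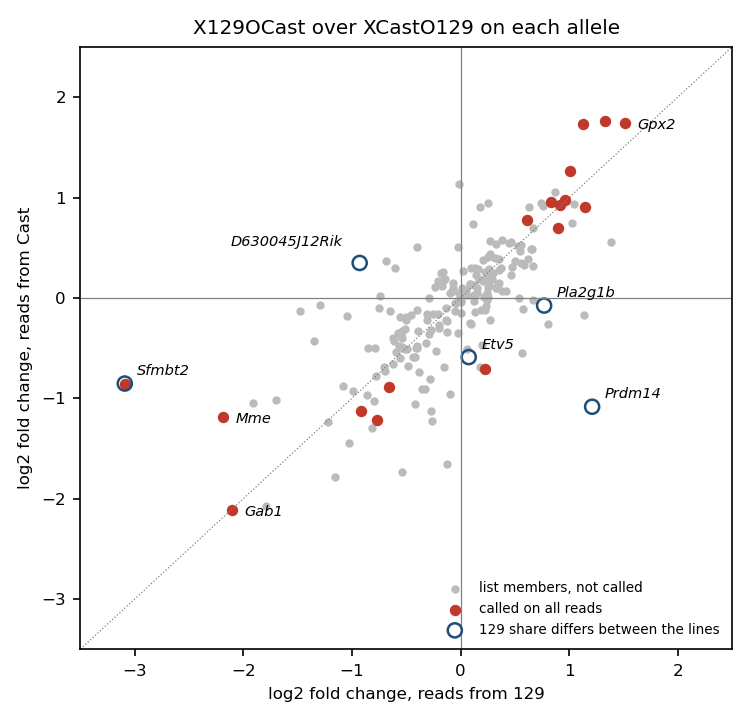
Log2 fold change of X129OCast over XCastO129 on reads from Cast (vertical axis) against that on reads from 129 (horizontal axis) for autosomal list members and called genes fitted on both alleles, with the diagonal dotted. *Gab1* lies on the diagonal at about -2.1 on both axes, and *Prdm14* has values of opposite sign.

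On distal chromosome 5, 1 of 228 genes tested (0.439%, against 0.132% of the other autosomal genes) passed in the fit of 4 libraries and 46 (20.2%, against 6.43%) in the fit of 30, 45 of them higher in X129OCast. *Actb*, cytoplasmic actin, was at 7280 and 7290 TPM in X129OCast and at 5667 and 3968 TPM in XCastO129. *Hspb1*, a small heat shock protein, was at 1650 and 1623 TPM against 1301 and 305 TPM, and *Fscn1*, an actin bundler, at 1568 and 1640 TPM against 1293 and 557 TPM. *Eif3b*, a translation initiation factor, was at 1283 and 1321 TPM against 1188 and 658 TPM, and *Mcm7*, a replication helicase, at 829 and 797 TPM against 868 and 494 TPM. In these 5 genes, the most abundant of the segment, XCastO129 replicate 2 was the lowest library and replicate 1 lay nearer to X129OCast than replicate 2 did.

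*Tnrc18* was the gene called in the fit of 4 libraries, and here both XCastO129 libraries were low. It was at 16.7 and 18.3 TPM in X129OCast and 5.13 and 5.98 TPM in XCastO129 (log2 1.70, SE 0.12, edgeR adjusted p = 0.0266). Without XCastO129 replicate 2, the fit of 30 libraries called 19 genes of the segment, and without replicate 1 it called 152. Among the 16 genes between 134 and 135 Mb, 0 passed in the fit of 4 libraries and 4 in the fit of 30, all higher in X129OCast. Leaving out both the chromosome 5 genes from 134 Mb and the chromosome 15 genes from 98 Mb left 20 and 957 autosomal genes called in the fits of 4 and 30 libraries.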

How the data were processed

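Counts per gene were analysed for 30 libraries, of which the 4 XO libraries were grouped by line from their labels. Before deposit, the authors used TrimGalore 0.6.7 for trimming and HISAT2 2.2.1 for alignment on an mm10 genome with strain SNPs masked, assigned reads to alleles by SNPsplit, and counted them on exons, with strand, with featureCounts on Ensembl 98. The submitters' processing notes also name HTSeq 0.12.4. The deposited counts were used as they are, without normalization: all reads, reads from 129 and reads from Cast.

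Gene positions and exon lengths for TPM were from GENCODE M21 (GRCm38, the same assembly as mm10), which held 55240 of 55421 genes. Genes with at least 10 counts in 2 of the 4 libraries were tested (15980 in all) with edgeR 4.0.16 in R 4.3.3, quasi-likelihood test, TMM factors from autosomal genes outside distal chromosome 5, Benjamini-Hochberg over all genes tested, threshold 0.05. DESeq2 1.42.0, and the same test with 1 term per condition over all 30 libraries, were alternatives. Adjusted p-values given with 30 libraries are from that edgeR fit, as are fold changes given beside such a p-value alone. Where p-values of both fits are given, the fold change and SE are from the fit of 4 libraries. Alleles were fitted alike. Shares of 129 reads were tested as an interaction in genes with 20 allelic counts in every library. Intervals of depth cover counting error only. Tested on simulated data for this comparison over 15980 genes, the script called 74 of 100 genes with a log2 change of 1, 95 of 100 with 2, and 17 of 15780 without any. The changed genes were drawn from those with higher counts. Both simulated lines had the same spread per gene, whereas the real lines differed in spread, so recovery in the real data may differ.

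Named genes were *Rlim*, *Pou5f1*, *Sox2*, *Nanog* and *Esrrb*; the 10 largest rises and 10 largest falls of protein-coding genes called with a mean of at least 5 TPM in a line and no overlap; up to 4 called members of each list, or the 2 most abundant where none was called; the 5 most abundant genes of distal chromosome 5; and the 5 largest changes of allele share. Some genes, 1 of them with a changed allele share, are not reported here or drawn in the plot of alleles. The other genes named were chosen after their values were seen. Members and lists were chosen with earlier results of these data known, and the lists follow from common knowledge of mESCs. Same-numbered libraries of both lines correlated at 0.0966 in their deviations over 15131 genes, from 2 pairs, and the number was not used as a block. Python 3.11.15 drew the figures and tables.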

Additional observations from a re-analysis of the deposited data

Results flagged for a closer look

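For 5 autosomal genes given here the effect of the line on the 2 alleles differed, by edgeR's test of the interaction of allele and line. The adjusted p was 0.00973 for *Prdm14*, 0.0132 for *Sfmbt2*, 0.019 for *Etv5*, 0.0209 for *Pla2g1b* and 0.0464 for *D630045J12Rik*. The share of 129 reads was higher in X129OCast for 3 of them (*Prdm14*, *Etv5* and *Pla2g1b*) and lower for the other 2. *Prdm14* and *Sfmbt2* had the largest differences, with 2.27 and -2.21 on the log2 scale of the odds of a 129 read (X129OCast minus XCastO129), and *Etv5* the most allelic reads.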

How the results depend on the processing

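The count of autosomal genes called (20) became 973 with all 30 libraries in the fit, 435 with DESeq2, 646 without a filter on low counts, 51 with the replicate number as a block and 5 with protein-coding genes alone, and it ranged from 0 to 3202 when 1 library was left out. Genes beyond a log2 of 1 (13) became 252, 87, 166, 28 and 4 in the same order, with 0 to 590 on leaving out a library. List genes called (5) became 31, 38, 53, 10 and 2, with 0 to 140. Distal chromosome 5 genes called (1) became 46, 14 and 34 with 30 libraries, DESeq2 and no filter and 3 with the block, with 0 to 170. Genes called on the 129 allele (88) and the Cast allele (79) became 286 and 249 with the block, with 26 to 1084 and 0 to 1071 on leaving out a library, and genes with a changed allele share (6) had 1 to 145. In the fit of 30 libraries, alternatives added after seeing the data left out each XO library: autosomal genes called (973) had 166 to 862, those beyond a log2 of 1 (252) 54 to 334, list genes (31) 6 to 35 and distal chromosome 5 genes (46) 8 to 152. With 1 library left in a line, that library was assumed to vary like the others. RLE factors, TMM over all genes and a mean TPM over 5 left 20 or 21 autosomal genes, and chromosomes with a balanced allele share alone 17. *Rlim* stayed between -4.41 and -4.30 under every alternative. No named gene reversed its direction while called. The replicate numbers name libraries and do not pair them by any label. The cause of these changes was not tested, beyond the closer agreement of the X129OCast replicates given above. A stricter minimum of allelic counts gave 79 genes on the 129 allele and 85 on the Cast allele.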
